A study of Zea mays with 10 samples.

Results

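Maize seedlings that had been entrained to days of 12 h light and 12 h dark were followed in constant light (LL), and the first subjective morning after the last night was compared with the same clock times 24 h later. The first morning is the arrays labelled ZT0, ZT4 and ZT8, where ZT is the number of hours since the last dawn, and the second morning is the arrays labelled ZT24, ZT28 and ZT32. These are 6 of the 10 arrays analysed here, and they were chosen by their labels and not by any measured value. They form 3 pairs by clock time, ZT0 with ZT24, ZT4 with ZT28 and ZT8 with ZT32. All arrays hold total RNA from the aerial tissue, leaf and shoot, of week-old B73, the inbred line whose genome is the maize reference, and all groups share this genotype and LL. Each array is a pool of 3 replicates of 5 seedlings, so 1 pooled array stands for each time point and the spread between plants cannot be seen. The plants of the first morning had just left a night in darkness, while those of the second had spent the subjective night in light, were a day older and were hybridized to other arrays. Darkness before dawn, age, time in LL and array therefore cannot be told apart in any difference described here.

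In LL the plant circadian clock runs without a dawn signal and keeps many transcripts cycling, so that they pass through similar levels once per cycle. Many leaf transcripts also respond to light, to darkness and to sugars. In leaves the morning is the time at which photosynthesis restarts, starch broken down at night stops being the carbon source, and enzymes of pigment synthesis and photoprotection are made.

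The array carried 17621 probe sets other than controls, and the 12512 of them whose signal reached 50 on 3 or more arrays of the 10 were tested. The signals are linear intensities, and differences are given as log2 of the second morning over the first, averaged over the 3 pairs. The labelled tissue was checked by marker genes. All 3 bundle sheath marker probe sets and 8 of 9 mesophyll marker probe sets were at 50 or more on every morning array, whereas 14 of 16 for seed storage and 3 of 5 for pollen and tassel were under 50 on every one. Of those tested, the seed markers FL1 and gz27 differed by -0.36 and -0.63. The pollen allergen family member GRMZM2G025175 differed by 1.26, from a ZT0 signal of 34.0, and the other tested pollen marker by -0.19. None of these was called. Both root marker probe sets, for zrp4 and rop3, were above 50, with summed signals of 297 to 338 on the first morning and 225 to 233 on the second. For zrp4, a gene named for its expression in roots, the fall passed the test, whereas rop3 differed by 0.01, and the part of these markers in the results below was not tested. The ZT28 array had the lowest top signals, with a maximum of 10020 against 13264 to 16839 on the other morning arrays. The lists for photosynthesis are therefore given with and without quantile normalization. Bright probe sets outside these lists are also concerned. In the brightest 10% by mean signal, the ZT4 and ZT28 pair had a median difference of -0.20, against 0.01 and -0.04 in the ZT0 and ZT8 pairs. Of these, 52 were called lower and 11 higher below, por, cpx2 and tip1 among the lower. The part of the ZT28 array in these calls was not tested.

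Of the 12512 probe sets, 391 (3.12%) differed between the mornings in limma's paired test at an adjusted p of at most 0.05. On the second morning 223 (1.78%) were higher and 168 (1.34%) lower. The called differences had a median size of 0.75 on the log2 scale and ranged from 0.458 to 4.07, and 98 were at least 2-fold. The largest, for LUX described below, rests on first-morning signals that were all under 50. The smallest adjusted p was 0.00898, and 3105 probe sets (24.8%) reached an unadjusted p of 0.05. The number of calls depended on which pairs were used. Without the ZT4 and ZT28 pair no probe set was called. The smallest adjusted p was then 0.215, with 2101 below an unadjusted p of 0.05. Without the ZT0 and ZT24 pair 223 were called. Over probe sets, the differences of the ZT0 and ZT8 pairs correlated at 0.37, against 0.48 for ZT0 with ZT4 and 0.50 for ZT4 with ZT8. Whether the loss of calls came from the pair left out or from those remaining was not tested. Only 2 probe sets were called when the prior variance did not follow the signal level and 3 when no filter on signal was applied, and none of the 48 called probe sets named here stayed past the threshold in those fits. After quantile normalization 13 of them were just outside it, at adjusted p from 0.0507 to 0.0546. These were the second HSFC1-like probe set, GRMZM2G170128, gst23, nar, pcr1, CP24, a2, CHI, GRMZM2G399136, pho1, UDPase, RR7 and GRMZM2G041959. The signals in each array are therefore given beside the calls. With 3 pairs an exact sign-flip test of a single gene cannot go below a two-sided p of 0.25.

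The same direction in all 3 pairs was found for 6013 probe sets (48.1%), 3267 (26.1%) higher and 2746 (21.9%) lower, and these shares are the background for the counts of list members below. Larger differences were few. A total of 29 probe sets (0.232%) were at least 2-fold higher in each of the 3 pairs with signals under 50 set to 50, and 14 (0.112%) at least 2-fold lower. Of these 43 (0.344%), the limma test called 41. The 3 signals of the second morning all lay above the 3 of the first for 1989 probe sets (15.9%) and all below for 1759 (14.1%), 30.0% in either direction.

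The difference between the days was wider at dawn than later in the morning. The SD of the log2 difference over probe sets was 0.480 for ZT0 with ZT24, 0.426 for ZT4 with ZT28 and 0.386 for ZT8 with ZT32. Between ZT20 and ZT44, a pair of late subjective nights that both lie in LL, it was 0.243. At least 2-fold higher signals on the later day were found for 281, 242, 136 and 50 probe sets in these 4 pairs, and at least 2-fold lower ones for 204, 124, 134 and 13. Each pair is 1 array against 1 array, so these spreads carry no test.

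**Figure D1:**
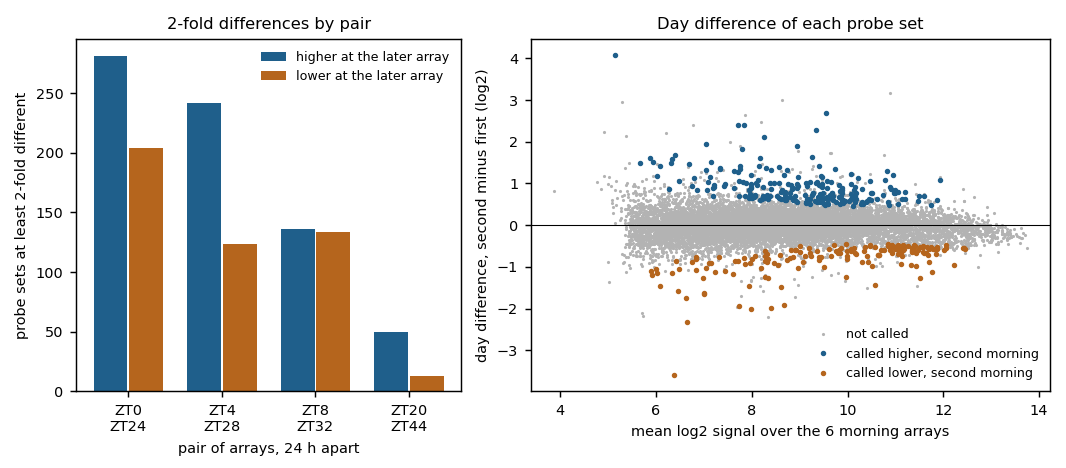
Left, the number of probe sets at least 2-fold higher (blue) or lower (brown) at the later array of each pair taken 24 h apart. Right, the day difference (log2, second morning minus first, mean of 3 pairs) of each of the 12512 probe sets against its mean log2 signal, with the 223 called higher in blue and the 168 called lower in brown. The counts shrink from 281 and 204 in the dawn pair to 50 and 13 in the pair of late nights.

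The largest called rise among named genes with all signals at 50 or more belonged to a class C heat shock factor. GRMZM2G118047, whose closest Arabidopsis match is HSFC1, a heat shock transcription factor, was read by a pair of probe sets. The first gave signals of 975, 200.4 and 130.3 at ZT0, ZT4 and ZT8 and of 2706, 1778 and 1419 at ZT24, ZT28 and ZT32. Every second-morning signal lay above every first-morning one, and the decline through the morning was steeper on the first day. The day difference was 2.69 (SE 0.36, adjusted p = 0.0351), a 6.45-fold rise. The second probe set read 904, 210.2 and 137 against 1843, 1461 and 1093, a difference of 2.27 (adjusted p = 0.0389), so both probe sets for the gene moved the same way.

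A jumonji (jmjC) domain protein, GRMZM2G052908, of a family that includes histone demethylases, gave 201, 38.4 and 97.0 on the first morning and 552, 481 and 424 on the second. The groups were far apart, with the lowest point at ZT4, and the rise of 2.41 (SE 0.38) passed the test at adjusted p = 0.0387. GRMZM2G114988, which resembles the Arabidopsis cytochrome P450 CYP81D4, had signals of 62.8, 52.1 and 93.5 and then 278, 281 and 222. It rose 3.84-fold (difference 1.94, SE 0.24, adjusted p = 0.0299) with no overlap. A wound-responsive family protein, GRMZM2G028665, read 263, 32.5 and 321 and then 784, 1118 and 1612. Its difference of 3.0 (SE 0.61) was larger still, but with the dip at ZT4 it stayed just outside the threshold at adjusted p = 0.0543. GRMZM2G012119, a homolog of PIFI, a chloroplast protein of cyclic electron flow, read 327, 175 and 1486 and then 1215, 1274 and 1976, and its difference of 1.72 was not called (SE 0.41, adjusted p = 0.0694). Its mornings overlapped through the high ZT8 signal.

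The gene hppd encodes 4-hydroxyphenylpyruvate dioxygenase, which makes the precursor of tocopherols and plastoquinone. Its transcript was at 508, 571 and 252 on the first morning and at 1211, 1286 and 879.8 on the second, with no overlap, and its 2.66-fold rise (difference 1.41, SE 0.14) had an adjusted p of 0.0269. A putative monodehydroascorbate reductase, GRMZM2G134708, which regenerates ascorbate, went from 651, 901 and 912 to 1766, 1905 and 1659 (difference 1.13, SE 0.13, adjusted p = 0.0269). The second-morning signals were nearly level across the clock times. The alternative oxidase aox1, a mitochondrial enzyme that bypasses part of the respiratory chain, rose from 576, 661 and 653 to 989.8, 1183 and 1040.4 (difference 0.76, SE 0.09, adjusted p = 0.0299).

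Of 20 tested probe sets for antioxidant enzymes, 9 were higher in all pairs and 2 lower, with a median of 0.14 against 0.03 over all probe sets tested, and 2 were called, both higher. Besides the reductase, a catalase probe set for cat1, an enzyme that removes hydrogen peroxide, rose from 98, 99.7 and 98.7 to 148, 208 and 185 (difference 0.85, SE 0.15, adjusted p = 0.0451). Another probe set for cat1 differed by 0.37 and was not called (adjusted p = 0.172). The thioredoxin trxh1 differed by 0.41 without passing the test (adjusted p = 0.0739).

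Glutathione S-transferases, which attach glutathione to reactive and foreign compounds, had the highest median of the 25 gene lists at 0.44. It was 0.64 in the ZT0 pair but 0.18 and 0.20 in the ZT4 and ZT8 pairs. The list covered 30 genes, and several of its probe sets read gst31, at 0.91 to 1.23. Of 33 probe sets, 12 were higher and 7 lower in all pairs, 21 were under an unadjusted p of 0.05, and 4 were called, all higher. The largest of these, gst23, read 252, 185 and 215 and then 392, 711 and 553 (difference 1.31, SE 0.23, adjusted p = 0.0451). The other 3 were named after their values were seen: gst17 at 0.69, gst19 at 0.57 and GST 21 (GRMZM2G428168) at 0.92. Signals of gst19 were 1134, 1110.1 and 1113 and then 1674, 1629.8 and 1675, so each morning was flat and the step between them was clear. The members gst31 (1.23), GST25 (1.21) and gst30 (0.92) were also higher in each pair but had adjusted p of 0.132, 0.137 and 0.0501. Outside the list and also chosen after its values were seen, gsh1, for glutamate-cysteine ligase, the enzyme that begins glutathione synthesis, rose by 0.73 (SE 0.13, adjusted p = 0.0451).

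**Figure D2:**
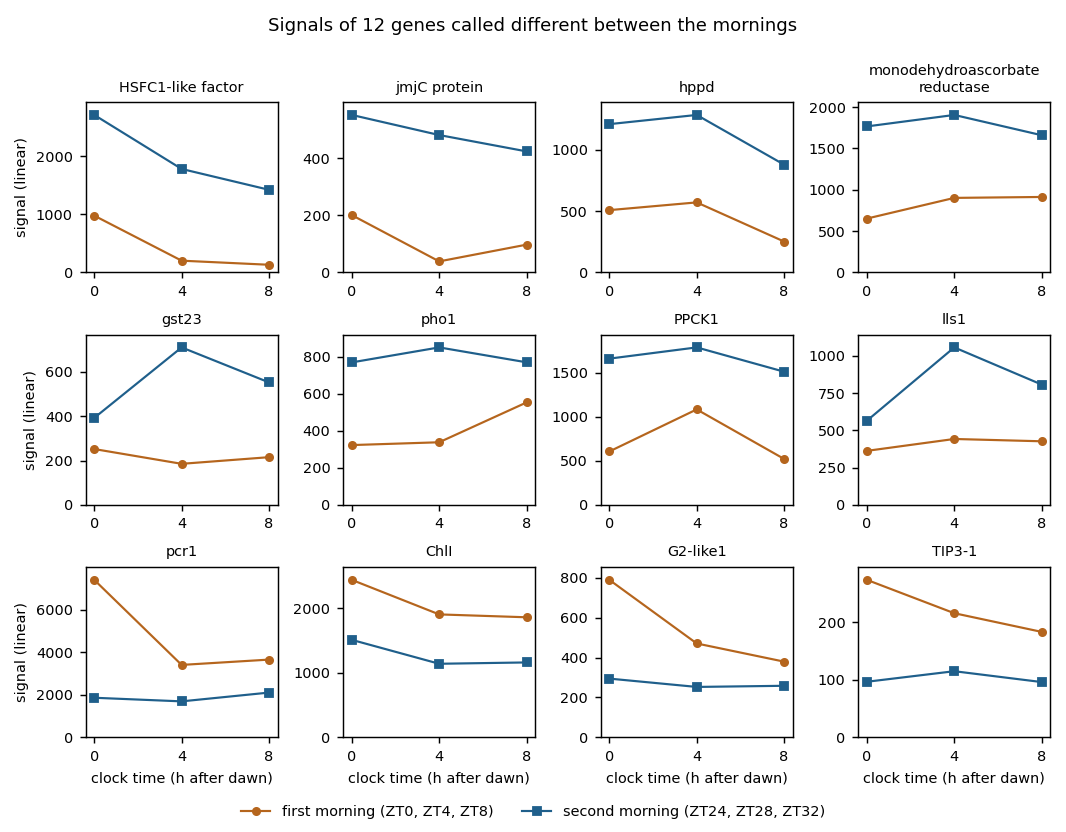
Signals (linear axes from 0) of 12 genes called different between the mornings, by clock time, with the first morning in brown and the second in blue. Each point is 1 array. The upper 8 genes sat higher on the second morning at each clock time and the lower 4, pcr1, ChlI, G2-like1 and TIP3-1, sat lower.

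Chlorophyll synthesis stood at the other end, with the lowest list median, -0.51. Of 10 probe sets for chlorophyll and heme synthesis, 7 were lower and 2 higher in all pairs, 9 were under an unadjusted p of 0.05 and 3 were called, all lower. The gene pcr1 encodes protochlorophyllide reductase, the light-dependent step of chlorophyll synthesis. It gave 7406, 3404 and 3654 on the first morning and 1859, 1689 and 2102 on the second. The ZT0 signal was the highest by far and the days did not overlap, for a fall of 1.27 on the log2 scale (SE 0.22, adjusted p = 0.0451). A second gene for this enzyme, por, went from 4405, 3294 and 4052 to 2679, 2149 and 2549 (difference -0.67, SE 0.09, adjusted p = 0.0344).

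ChlI, a subunit of the magnesium chelatase that starts the chlorophyll branch, was lowered almost equally at each clock time. Its signals were 2441, 1905 and 1860.4 and then 1510.4, 1139.6 and 1160.2, a difference of -0.70 (SE 0.08, adjusted p = 0.0299). A putative chlorophyllide a oxygenase, GRMZM2G038487, which makes chlorophyll b, had 938, 812 and 564 against 456, 456 and 449 and a difference of -0.73 (adjusted p = 0.0541), and geranylgeranyl reductase (GGR), which supplies the chlorophyll side chain, a difference of -0.61 (adjusted p = 0.0765). Neither passed the test.

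A few called genes around this pathway were named after their values were seen. The coproporphyrinogen oxidase cpx2, which acts upstream of ChlI, fell by 0.56 (SE 0.09, adjusted p = 0.0376), with 4481, 4055 and 3885 against 3108, 2661 and 2687. G2-like1, a GOLDEN2-like transcription factor of a family known for activating chlorophyll and photosynthesis genes, read 791, 471 and 379.8 and then 295, 253 and 259, and fell by 0.96 (SE 0.17, adjusted p = 0.0465). In contrast lls1, the pheophorbide a oxygenase of chlorophyll breakdown, rose from 362, 442 and 426 to 564, 1056 and 807 (difference 0.94, SE 0.14, adjusted p = 0.0351).

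The light harvesting proteins, which bind chlorophyll around the photosystems, were lower in all pairs for 9 of 11 probe sets and higher for none. Their median was -0.28, and -0.12 after quantile normalization, and 1 was called. CP24, an antenna protein of photosystem II, was read by 3 probe sets. One gave 4493, 4978 and 4615 and then 3329.8, 2472 and 2975, with no overlap (difference -0.69, SE 0.13, adjusted p = 0.0485). The others differed by -0.71 and -0.65 at adjusted p of 0.0511 and 0.0649. The lowest morning signal of each of these probe sets was on the ZT28 array, which had the lowest top signals, and the part of this in the result was not tested. For the whole list the median difference of that pair was -0.70, against -0.25 and -0.17 in the ZT0 and ZT8 pairs.

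No other photosynthesis gene on the lists was called. Of 14 probe sets for photosystems and electron transport, 2 were higher and 4 lower in all pairs and none was called (median -0.09, and -0.02 after quantile normalization). An unadjusted p of 0.05 was reached by 3 of them, among them the ferredoxin fdx3 at 0.40 (adjusted p = 0.0579). The photosystem I subunits psad1, psaH and psaN differed by -0.50, -0.32 and -0.31 without passing the test, each with its lowest morning signal on the ZT28 array. Of 29 probe sets for the C4 and Calvin cycles, 2 were higher and 7 lower in all pairs, 2 were under an unadjusted p of 0.05 and none was called. Their median of -0.09 became 0.05 after quantile normalization, so it has no settled direction. The largest member of one sign in all pairs, a malate dehydrogenase (GRMZM2G141289), read 1157, 705 and 398 and then 492, 342 and 380 (difference -0.78, adjusted p = 0.101). The carbonic anhydrase CA2, which supplies bicarbonate, differed by -0.40 in 1 of its probe sets (adjusted p = 0.114). PEPC, which fixes carbon in mesophyll cells, read 12399, 10686 and 11497 and then 11802, 7846 and 10705, a difference of -0.21 that turned to 0.03 after quantile normalization. RBCS-3B, a Rubisco small subunit, differed by -0.22 and turned to 0.01. A PPDK probe set, for pyruvate phosphate dikinase and with the symbol CYPPDKZM2, differed by 0.07 (SE 0.12). The probe sets with the symbol C4ppdkZm1 differed by -0.20, -0.15, -0.06 and 0.14, and none of them was called.

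Marker sums moved in the same arrays. The mesophyll markers summed to between 76541 and 80367 on the first morning and between 55623 and 80667 on the second, the lowest being ZT28, and the bundle sheath markers to between 18495 and 24242 and between 14334 and 20561. The list medians were -0.17 and -0.24, and 0.07 and -0.10 after quantile normalization. No member of either was called, and none was under an unadjusted p of 0.05.

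PPCK1 was an exception within C4 metabolism, named after its values were seen. This kinase phosphorylates PEP carboxylase and makes it less sensitive to feedback inhibition. Its signals were 607, 1085 and 522 on the first morning and 1662, 1790.3 and 1514 on the second, with no overlap, and it rose 2.36-fold (difference 1.24, SE 0.17, adjusted p = 0.0351).

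Carotenoid and flavonoid genes had medians above that of all probe sets. Of 9 probe sets in the carotenoid and abscisic acid pathway, 4 were higher and none lower in all pairs, with a median of 0.40 (0.28, -0.11 and 0.38 in the 3 pairs), but none passed the test and 4 were under an unadjusted p of 0.05. The desaturase vp9 went from 306, 345 and 303 to 589, 518 and 389.6 (difference 0.63, adjusted p = 0.0579), and Pds differed by 0.40 (adjusted p = 0.0664). The hydroxylase BCH1, which makes xanthophylls, differed by 0.40 and had its highest signal at dawn on both days. Of 14 flavonoid and phenylpropanoid probe sets, 4 were higher and 1 lower in all pairs, against shares of 26.1% and 21.9% over all probe sets. The median was 0.21, with pair medians of -0.12, -0.03 and 0.38, and 2 rose, neither of which was called after quantile normalization. These were a2, for anthocyanidin synthase, with 928, 747 and 909.9 against 1326, 1290.1 and 1251 (difference 0.59, SE 0.10, adjusted p = 0.0451), and the chalcone isomerase CHI (difference 0.51, SE 0.09, adjusted p = 0.0481). A putative flavonoid 3'-monooxygenase, GRMZM2G025832, differed by 1.04 at adjusted p = 0.0501.

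**Figure D3:**
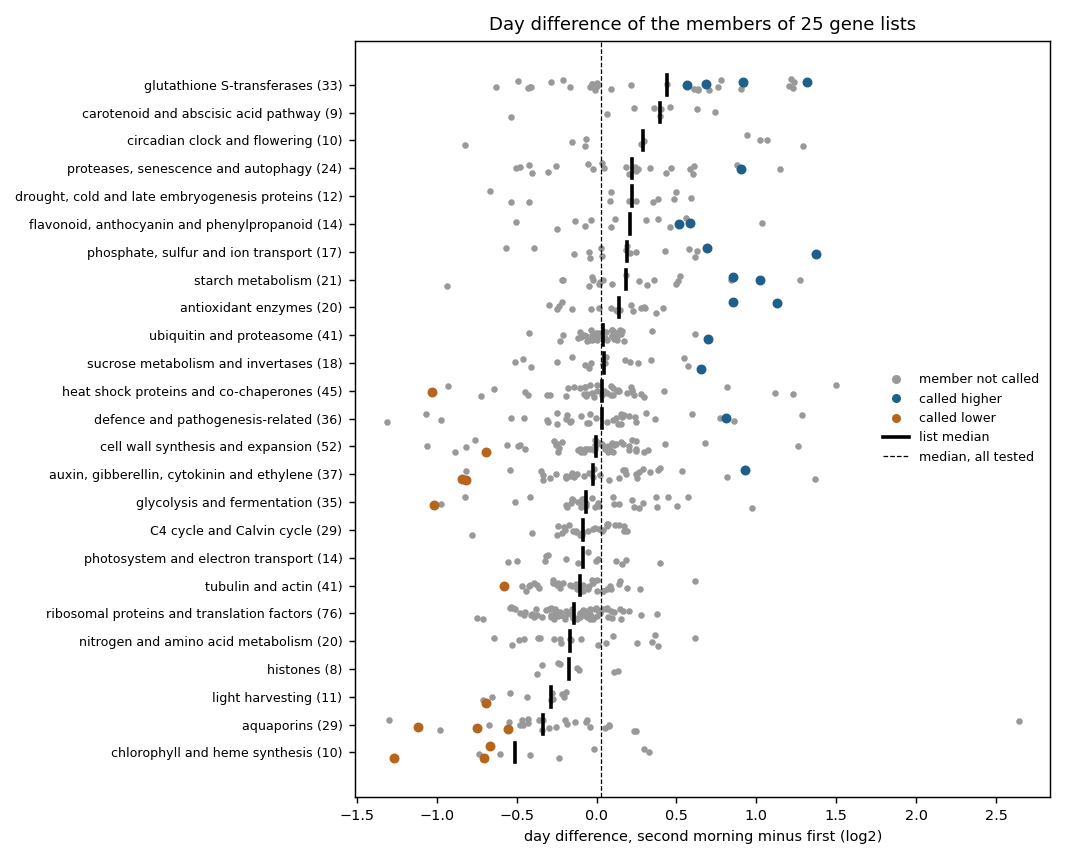
Day difference (log2, second morning minus first) of each tested probe set in 25 gene lists, ordered by median, with the number tested in brackets. Black bars are list medians, the dashed line is the median over all probe sets tested, and coloured points are members that were called. Medians run from -0.51 for chlorophyll and heme synthesis to 0.44 for glutathione S-transferases.

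Starch enzymes were higher in all pairs for 11 of 21 probe sets and lower for 3, with a median of 0.18, and 2 rose. The glucan phosphorylase pho1 read 323, 338 and 554 and then 770.1, 851 and 770.5 (difference 1.02, SE 0.18, adjusted p = 0.0451). A starch branching enzyme most like SBE2.2, GRMZM2G073054, read 909.9, 926 and 1002 and then 1891, 1870.3 and 1415 (difference 0.86, SE 0.13, adjusted p = 0.0357). In both the mornings did not overlap. The amylase AMY3 was at 723, 224 and 141 and then at 777, 699 and 589. It was alike at dawn and differed later, for a mean of 1.27 that did not pass the test (SE 0.35, adjusted p = 0.0928). PHS2, another phosphorylase, differed by 0.84 (adjusted p = 0.0537) and a putative starch synthase, SS, by -0.93 (adjusted p = 0.171). Another SS probe set differed by -0.21 and was not called.

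Sugar metabolism was mixed. Of 18 probe sets for sucrose metabolism and invertases, 3 were higher and 4 lower in all pairs (median 0.04), and 1 for UDPase, a UTP-glucose-1-phosphate uridylyltransferase, rose by 0.66 (SE 0.11, adjusted p = 0.0412), a call lost after quantile normalization. Of its 5 other probe sets 1 differed by 0.55 (adjusted p = 0.0515) and 4 by -0.07 to 0.18. The sucrose synthase ss2 and the sucrose phosphate synthase SPS had differences of -0.51 and -0.46 and were not called (adjusted p = 0.0502 and 0.0989). Of 35 for glycolysis and fermentation, 8 were higher and 9 lower (median -0.06). The cytosolic glyceraldehyde-3-phosphate dehydrogenase gpc4 fell from 971, 1027 and 1094 to 600.4, 509 and 433, by 1.01 on the log2 scale (SE 0.14, adjusted p = 0.0351). The member pfk1, for a phosphofructokinase by its symbol, read 806, 458 and 368 and then 266, 255 and 266, with no overlap, but its difference of -0.97 was not called (adjusted p = 0.059).

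Aquaporins, the water channels of the plasma membrane (PIP) and tonoplast (TIP), had a median of -0.33. Of 29 probe sets, 13 were lower and 2 higher in all pairs, 16 were under an unadjusted p of 0.05 and 3 fell. TIP3-1 gave 273, 215 and 183 and then 96.3, 115 and 95.8 (difference -1.12, SE 0.17, adjusted p = 0.0353), well apart. The member pip2c gave 2071, 2067 and 1274 and then 1053, 1200.3 and 905 (difference -0.75, SE 0.11, adjusted p = 0.0356), while another pip2c probe set differed by -0.33 and was not called (adjusted p = 0.182). The third, tip1, was named after its values were seen and fell by 0.56 (adjusted p = 0.0451). PIP2-6 was high at ZT4 alone, with 592, 1854 and 377 against 243, 433 and 263, and its difference of -1.30 was not called (adjusted p = 0.056).

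Genes of protein synthesis and the cytoskeleton leaned downwards by small steps. Ribosomal proteins and translation factors were lower in all pairs for 39 of 76 probe sets and higher for 3, with a median of -0.14 that was -0.16, -0.17 and -0.15 in the 3 pairs. None was called, and 27 were under an unadjusted p of 0.05. The largest member of the same sign, RPS21, had a difference of -0.75 (adjusted p = 0.0524). RP-P0, a protein of the ribosomal stalk outside the list and named after its values were seen, fell by 0.66 (SE 0.10, adjusted p = 0.0353). Of 8 histone probe sets 4 were lower and none higher in all pairs (median -0.18), none was called and 3 were under an unadjusted p of 0.05.

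Of 41 tubulin and actin probe sets, 15 were lower and 4 higher in all pairs (median -0.10), and 1 for actin fell by 0.58 (SE 0.09, adjusted p = 0.0353). Another probe set labelled actin differed by -0.16 and was not called. Cell wall genes were balanced, with 12 of 52 higher and 10 lower in all pairs (median -0.01). HRGP, a hydroxyproline-rich wall glycoprotein, fell from 435, 396 and 380.2 to 259, 249.7 and 241 (difference -0.69, SE 0.10, adjusted p = 0.0353). Another HRGP probe set differed by -0.56 and was not called. The transcript xet1, for a wall-loosening enzyme, was high at ZT0 alone at 2193 and was not called (difference -1.06, adjusted p = 0.0811). A homolog of the Arabidopsis gene emb1879, GRMZM2G013964, fell from 1992, 1979 and 1646 to 1012, 971 and 1068, by 0.88 (SE 0.11, adjusted p = 0.0318).

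Of 37 hormone probe sets, 8 were higher and 11 lower in all pairs (median -0.02) and 3 were called. A putative 2-oxoglutarate-dependent dioxygenase, GRMZM2G121700, of the enzyme class that includes gibberellin oxidases, fell from 465, 526 and 761 to 265, 316 and 388 (difference -0.84, SE 0.10, adjusted p = 0.0299). RR7, a response regulator of cytokinin signalling, fell by 0.82 (SE 0.15, adjusted p = 0.0451). A dormancy/auxin associated protein, GRMZM2G099049, rose by 0.93 (SE 0.15, adjusted p = 0.0387).

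Few probe sets for transporters and proteases were called. Of 17 probe sets for phosphate, sulfur and ion transport, 7 were higher and 1 lower in all pairs (median 0.19), and 2 rose. GRMZM2G175140, most like AMT1;1, which takes up ammonium, read 151, 146 and 343 and then 507, 470.5 and 549 (difference 1.37, SE 0.22, adjusted p = 0.0394), and Nrt1.1 rose by 0.69 (SE 0.13, adjusted p = 0.0484). Of 20 probe sets for nitrogen and amino acid metabolism, 3 were higher and 8 lower (median -0.16), none was called and 9 were under an unadjusted p of 0.05. The glutamine synthetase genes gln2 and GLN6, which assimilate ammonium, differed in opposite directions, by -0.64 (adjusted p = 0.108) and 0.61 (adjusted p = 0.0534). The transcript nar, a symbol used for nitrate reductase, was outside that list and had the largest called fall among named genes above background, from 149.5, 268 and 276 to 86.7, 55.2 and 80.2 (difference -1.62, SE 0.28, adjusted p = 0.0451). A MATE efflux protein, GRMZM2G170128, rose by 1.34 (SE 0.24, adjusted p = 0.0451), and a homolog of the Arabidopsis metal tolerance protein MTPA2, GRMZM2G036908, by 0.78 (SE 0.09, adjusted p = 0.0269).

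Of 24 probe sets for proteases, senescence and autophagy, 10 were higher and 4 lower in all pairs (median 0.22). Only 1 was called, where 3.12% of all probe sets tested were. The cysteine protease mir3 rose from 961, 1326 and 2039.8 to 2046, 2578 and 3229, increasing through both mornings (difference 0.90, SE 0.11, adjusted p = 0.0299). Its other probe sets differed by 0.61 (adjusted p = 0.0827), 0.59 and 0.47 and were not called. The protease ccp2 read 1425, 1928 and 6555 and then 4860.1, 5406 and 7433, close only at ZT8 (difference 1.15, adjusted p = 0.0778). Of 41 ubiquitin and proteasome probe sets, 10 were higher and 4 lower (median 0.04), and again 1 was called. This was a kelch repeat F-box protein, GRMZM2G041959, which rose by 0.69 (SE 0.12, adjusted p = 0.0451).

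Stress lists held few called members, and fewer of their members kept 1 direction than over all probe sets. Of 45 heat shock and co-chaperone probe sets, 4 were higher and 6 lower in all pairs (median 0.04), and a putative DNAJ protein, GRMZM2G399136, fell by 1.03 (SE 0.18, adjusted p = 0.0451), from 303, 804 and 1489.7 to 215, 329 and 604, with mornings that overlapped. Of 36 defence probe sets, 7 were higher and 5 lower (median 0.03). The oxophytodienoate reductase opr5, of the enzyme family that includes jasmonate synthesis, rose from 1690.3, 1291 and 1592 to 2996, 2443 and 2576 (difference 0.81, SE 0.09, adjusted p = 0.0269), whereas the lipoxygenase lox1 differed by -1.31 and was not called (adjusted p = 0.0752). Of 12 drought, cold and late embryogenesis probe sets, 4 were higher and 1 lower (median 0.22), none was called and 4 were under an unadjusted p of 0.05.

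Among clock genes LUX, a homolog of the Arabidopsis evening complex gene PCL1, passed the filter only through arrays after the first morning. It gave 2.44, 6.03 and 42.8 on the first morning, all under the signal of 50 used as background, and 114, 156 and 169 on the second. The test gave a difference of 4.07 (SE 0.63, adjusted p = 0.0375), which rests on signals too low to be ordered. No weight is placed on that call. With signals under 50 set to 50, the second morning was 2.88-fold higher on average over the 3 pairs. This is a lower bound of that average, since all first-morning signals were set to 50. LUX was 1 of 20 probe sets (0.160%) at 50 or more on the whole second morning and under 50 on the whole first, and the other named ones were hsp18, PDC and an isoflavone reductase family protein (GRMZM2G475732), with 102 the highest signal among them. The reverse held for 40 probe sets (0.320%), of which the named ones were RIP, a homolog of NAP57 (GRMZM2G172956), sbp6 and a meprin and TRAF homology domain protein (GRMZM2G039094), with 109 the highest signal among them.

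Of the 10 probe sets in the clock and flowering list, 3 were higher and 1 lower in all pairs, 3 were under an unadjusted p of 0.05 and none was called (median 0.29). LUX was not matched to this list and stands outside these counts. COL5, a CONSTANS-like factor, read 385, 93.7 and 139.8 and then 475, 424 and 369. The days were close at dawn and apart afterwards (difference 1.29, SE 0.32, adjusted p = 0.0771). The blue-light receptor PHOT1 read 1054, 576 and 1260.5 and then 425, 428 and 759 (difference -0.82, SE 0.17, adjusted p = 0.0543). GI1A, the maize GIGANTEA, read 66.4, 671 and 2784 and then 704, 965 and 1298. Signals were higher at each later clock time on both mornings, from a far lower start on the first, so that the day difference changed sign within the morning, and its mean of 0.94 (SE 0.75) was not called (adjusted p = 0.474).

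Whether the day difference was the same at each clock time was tested by setting each pair against the mean of the other pairs. The ZT0 pair departed for 16 probe sets (0.128%), 8 (0.0639%) in each direction, and the ZT8 pair for 9 (0.0719%), 2 (0.0160%) upwards and 7 (0.0559%) downwards. The ZT4 pair departed for none in limma's test. At an unadjusted p of up to 0.05 the ZT0 pair had 1015 (8.11%), the ZT4 pair 453 (3.62%) and the ZT8 pair 549 (4.39%). After quantile normalization the counts for the ZT0 and ZT8 pairs were 12 and 0, so the ZT8 departures are not called under that scaling.

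A rhodanese-like protein, GRMZM2G052610, was low at the first dawn alone, with 205 at ZT0, 3289.5 at ZT4 and 4384 at ZT8, and then 2107, 2392 and 3401. Its ZT0 pair exceeded the others by 3.77 (limma, adjusted p = 0.0049). PRR7, a pseudo-response regulator of the morning clock loop, read 99.5, 821 and 885 and then 395, 502 and 651, and its ZT0 pair exceeded the others by 2.57 (adjusted p = 0.0345). The dehydrin dhn1, a late embryogenesis protein, read 322, 1484 and 1025 and then 1340.3, 1095 and 916, a departure of 2.36 (adjusted p = 0.0345). In the other direction AGA3b, an alkaline alpha-galactosidase related to an Arabidopsis seed imbibition protein, was high at the first dawn only, at 1212 against 194 and 179 and then 148, 135 and 131, a departure of -2.55 (adjusted p = 0.0424). For the second HSFC1-like probe set the departure was -1.87 (adjusted p = 0.0473), since its days were closest at dawn.

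At ZT8 the first day had caught up with or passed the second. The thiamine synthesis gene thi1 was at 151 and 257 at ZT0 and ZT4 and then at 6486, against 4644, 5134 and 7648 a day later. Its ZT8 pair lay 4.39 below the others on the log2 scale, a departure of -4.39 (adjusted p = 0.0042), and its mean difference of 3.17 was not called (adjusted p = 0.0858). Its relative thi1-2 read 331, 416 and 6578 and then 2177, 2734 and 5021, a departure of -3.11 (adjusted p = 0.0044). The tonoplast aquaporin TIP4-1 read 14.2, 32 and 1724 and then 270.3, 549 and 1289, a departure of -4.59 (adjusted p = 0.0042), and of -3.37 with signals under 50 set to 50. The invertase ivr2, which splits sucrose in the vacuole, did the opposite, with 3039.8, 2078 and 315 and then 1084, 877 and 887, and a departure of 2.86 (adjusted p = 0.0084).

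Not all departures at ZT8 were set on the first morning. A further 3 probe sets, named after their values were seen and without a gene name here, were lowest on the ZT32 array. The first of them read 2830.1, 1933 and 2134 and then 2959.5, 1691 and 346.

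**Figure D4:**
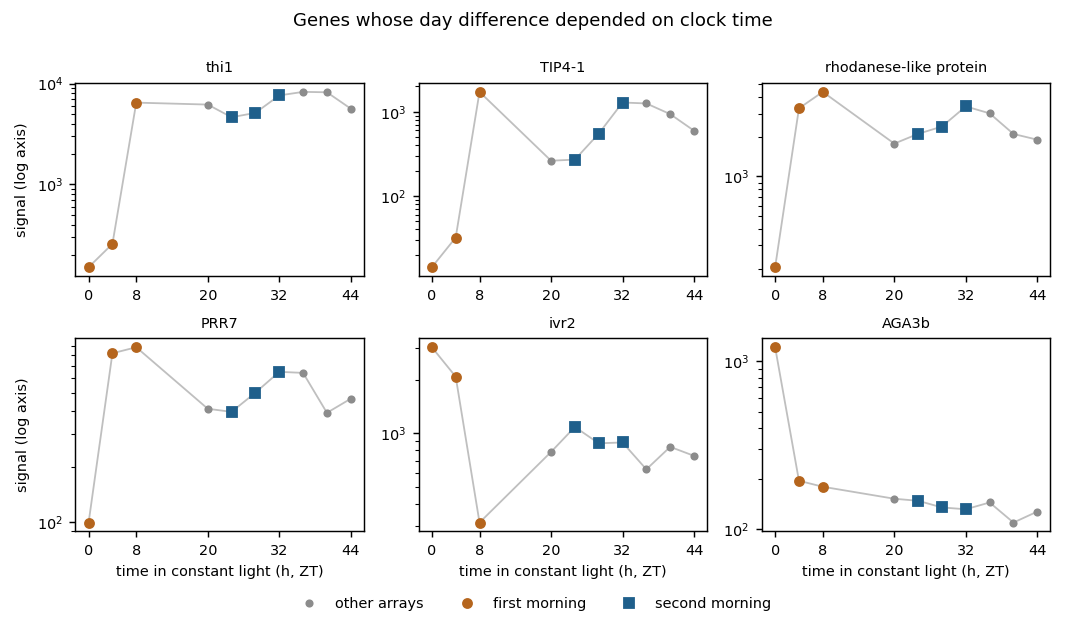
Signals (log axis) of 6 genes against hours in LL over all 10 arrays, with the first morning in brown, the second in blue squares and other arrays in grey; each point is 1 array. The wide swings within the first morning, such as 151 to 6486 for thi1, were narrower on the second.

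Swings within the morning were narrower on the second day. With signals under 50 set to 50, 639 probe sets spanned at least a 2-fold range over the first morning and 146 over the second, and 62.2% of probe sets had the wider range on the first. After quantile normalization the counts were 646 and 142. From ZT0 to ZT8, 281 probe sets went up and 211 down at least 2-fold, with no test, against 43 and 54 from ZT24 to ZT32. Of the 281, 229 were also higher at ZT32 than at ZT24, with a median change of 0.375 against 1.36 on the first day, and of the 211, 159 were also lower, with -0.217 against -1.22. Sets chosen for a large change on one day are likely to show a smaller one on another, so this comparison is a description. GI1A spanned 41.9-fold on the first morning and 1.84-fold on the second, and CAT3, a catalase known for its circadian rhythm in maize, 3.04-fold and 1.49-fold.

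For probe sets that differed between the mornings, the later arrays mostly stayed with the second morning. Each of the 43 probe sets with a 2-fold difference in all pairs was nearer to its second-morning mean than to its first-morning mean at ZT36, ZT40 and ZT44. At ZT20, before the second morning began, this already held for 27 of the 29 higher and 14 of the 14 lower probe sets. Of the 223 called higher, 204 were nearer the second-morning level at ZT20 and 222 at ZT44, and of the 168 called lower, 165 and 166. The share over all probe sets tested was not counted, so these counts lack a background. Whole arrays leaned the same way only in part. Centred log2 signals of ZT20 correlated at -0.31, -0.44 and -0.51 with ZT0, ZT4 and ZT8. With ZT24, ZT28 and ZT32 they correlated at 0.20, 0.16 and 0.04. For ZT44 the values were -0.52, -0.59 and -0.47, then -0.05, 0.33 and 0.22. ZT40 gave -0.52, -0.56 and -0.20, then -0.03, 0.09 and 0.19. ZT36 was mixed, at -0.51, -0.55 and -0.13, then -0.19, 0.01 and 0.23, so it was nearer to ZT8 than to ZT24. The ZT24 array did not side with its own morning, at -0.0035 and -0.13 with ZT28 and ZT32. With ZT0, ZT4 and ZT8 it was at -0.08, -0.07 and -0.31. Whether the called sets went beyond these whole-array correlations was not tested. At ZT20 the first HSFC1-like probe set was at 2644, hppd at 1597 and pcr1 at 1281.

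**Figure D5:**
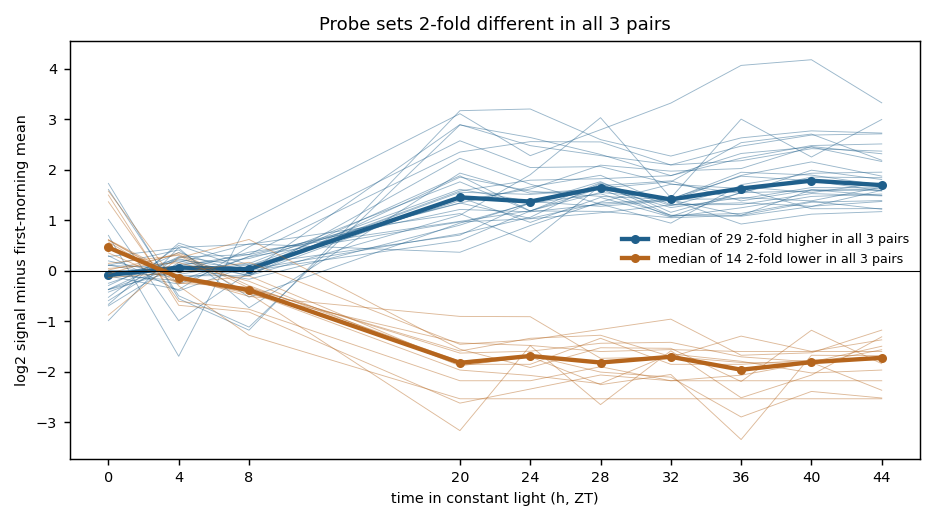
Log2 signal relative to the first-morning mean, signals under 50 set to 50, over the 10 arrays for the 29 probe sets at least 2-fold higher (blue) and the 14 at least 2-fold lower (brown) in all 3 pairs. Thin lines are probe sets and thick lines medians. Between ZT8 and ZT20 the medians leave the first-morning level and do not return to it by ZT44.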

How the data were processed

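The authors hybridized each pool to an Affymetrix GeneChip Maize Genome Array and deposited linear signal intensities, which the submitters' processing notes credit to MAS5 without a version. Samples were grouped by their labelled time. Signals under 1 were set to 1 and log2 was taken with no further scaling. For arrays, the number of arrays limits the precision. After 113 controls were removed, the 12512 of 17621 probe sets that reached a signal of 50 on 3 or more of 10 arrays entered limma (version 3.58.1, R 4.3.3) (clock time as block, day, eBayes with trend, 2 residual and 4.3 prior degrees of freedom), adjusted by Benjamini-Hochberg over all of them at 0.05. The departure of a pair left 1 residual degree of freedom. Both fits were run on simulated data with independent noise drawn from the fitted prior and the same clock pattern on both days. That run does not test them under differences between arrays such as that of ZT28. With 1 array per time point, the p-values set the day difference against its variation between the 3 clock times, together with the prior. They do not measure a spread between repeated arrays or plants. The error of a departure was the disagreement between the other pairs, again with the prior.

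Names came from the platform annotation (1452 probe sets with 1 gene, 1 with several, 16168 with none), updated through RefSeq, and from the study's annotation table. Genes were matched to 25 lists and 5 marker lists by name or function, with 75 entries removed by name. The members and lists were chosen with earlier results of these data known. Named genes were the 10 largest differences in each direction at 50 or more on all 6 arrays, the 5 lowest p in each direction, up to 4 per list, those above 50 on 1 morning only, the 3 lowest p per pair departure and direction, and clock and photosynthesis genes of the study's pathway table, of which those the text uses are given. Others are said to be named after their values were seen. Alternatives were other scalings, filters, offsets, priors and designs, and leaving out each pair. Python 3.11.15 (numpy 2.4.6, pandas 2.3.3, matplotlib 3.10.9) was used.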

Additional observations from a re-analysis of the deposited data

Results flagged for a closer look

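The day difference changed with clock time beyond limma's test for 16 probe sets at ZT0 and 9 at ZT8. Those below are given as the difference of the departing pair minus the mean of the other pairs, on the log2 scale and adjusted by Benjamini-Hochberg, and no explanation was tested.

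At ZT0 the pair exceeded the others for the rhodanese-like protein GRMZM2G052610 by 3.77, for PRR7 by 2.57 and for dhn1 by 2.36. GRMZM2G039536, of unknown function and named after its values were seen, departed by 3.25 (adjusted p = 0.0078), with signals of 70.6, 971 and 1684 and then 667, 1019 and 1578, so that only its first dawn was low. The departure was -2.55 for AGA3b and -1.87 for the second HSFC1-like probe set. Another probe set, without a gene name here and also chosen after its values were seen, departed by -3.06 (adjusted p = 0.0192). It was at 5079.6 at the first dawn and at 437 and 402 afterwards, against 762, 627 and 442 a day later.

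At ZT8 the departure was -4.39 for thi1, -3.11 for thi1-2 and -4.59 for TIP4-1 (-3.37 with its first-morning signals under 50 set to 50), all of which reached their highest first-morning signal at ZT8, and 2.86 for ivr2, which reached its lowest there. The 3 probe sets without a gene name that were lowest at ZT32 departed by -2.56, -3.49 and -2.13 (adjusted p = 0.0167, 0.0378 and 0.04). Their ZT32 signals of 346, 55.6 and 260.4 were the lowest of the 6 morning arrays in each case. The next lowest were 1691, 452 and 761.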

How the results depend on the processing

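The calls rested on a prior variance estimated over probe sets, since 3 pairs leave 2 residual degrees of freedom. Of 391 calls, 297 were shared with the 343 made after quantile normalization (173 higher and 170 lower), 269 with the 283 after median centring and 389 with the 441 on log2 of signal plus 32. The count was 3 with no filter on signal, 2 with eBayes without the trend, 11 with ZT20 and ZT44 as a further pair, 7 with all 10 arrays and a cosine, 663 with a robust prior and 3069 with the threshold at 0.2. Both fits that added ZT20 counted it with the first day. At ZT20, 204 of the 223 called higher and 165 of the 168 called lower were nearer their second-morning level. These counts lack a background over all probe sets. Those fits hold other arrays than the main one. The cause of the differences in count was not tested. Leaving out a pair gave 0 to 309 calls, 0 without the ZT4 and ZT28 pair, 223 without the ZT0 and ZT24 pair and 309 without the ZT8 and ZT32 pair. All labels carry the same replicate number, so the pairing is by clock time. Deviations from the group means correlated at 0.217, 0.006 and 0.325 within the 3 pairs, so the ZT4 and ZT28 arrays did not deviate together, and without the block 499 were called (233 higher and 266 lower), 285 of them shared.

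Departures of the ZT0 pair numbered 52 after median centring and 71 on log2 of signal plus 32, and those of the ZT8 pair 5 after median centring and 0 after quantile normalization. The SD of the ZT0 and ZT24 pair was 0.427 over probe sets at 50 or more on all 10 arrays, still the widest of the 4 pairs. At 1.5-fold in each pair, 216 probe sets differed (136 higher and 80 lower).

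Of the 118 probe sets named, 48 were called. After quantile normalization 13 of these lost the call and PEPC and RBCS-3B changed sign, to 0.03 and 0.01. The near-zero rop3 was at -0.02 after median centring and with ZT20 and ZT44 added, and at -0.04 in the fit of all 10 arrays. Leaving out a pair changed the sign of some mean differences that had not been called. These ranged from -0.41 to 1.5 for GRMZM2G052610, -0.30 to 0.95 for dhn1, -0.58 to 0.77 for PRR7, -1.37 to 0.13 for ivr2, -0.03 to 0.21 for PPDK, -0.29 to 1.97 for GI1A, -0.01 to 1.66 for GRMZM2G039536, -0.13 to 0.19 for rop3, -1.30 to 0.33 for the unnamed probe set that was high at the first dawn alone, and -0.79 to 0.33 for 1 of the 3 that were lowest at ZT32. The median of all probe sets was 0.03, and -0.01 after median centring. With 1 pooled array per time point and no technical repeat, the error of a single signal was not measured.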
